A study of Drosophila melanogaster with 3 samples.

Results

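The genes described here are 10 genes of the Ras-MAPK cascade of Drosophila melanogaster, Shc, drk, Sos, csw, Ras85D, RasGAP1, Raf, ksr, Dsor1 and rl, among 13945 protein-coding genes on the main chromosome arms. They were chosen by name, and the set was put together with the peak counts of these data known, above all those of Raf and Shc; every count over the 10 genes is therefore a description, without a test. All 10 names matched 1 gene each in the Ensembl annotation. The data are chromatin immunoprecipitations with sequencing (ChIP-seq) of Ets21C, an ETS-family transcription factor, in whole animals collected as white prepupae, when metamorphosis starts. All 3 samples, labelled as biological replicates 1 to 3, belong to 1 group: a transgenic line (d.ets6-GFP) that stably carries Ets21C fused at its C terminus to GFP, both sexes pooled, age not known, with no treatment named, precipitated with an antibody to GFP from chromatin sonicated to 200 to 800 bp. The labels name no promoter for the fusion gene and no tissue, and since whole animals were used, strong binding in few cells and weak binding in many cannot be told apart.

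In this cascade an activated receptor tyrosine kinase is bound by adaptor proteins, which bring an exchange factor to the membrane. The exchange factor loads the GTPase Ras, Ras recruits the kinase Raf, and Raf phosphorylates the MAPK kinase Dsor1, which phosphorylates the MAPK rl. In the fly, rl phosphorylates ETS-family factors such as pnt and aop, so ETS proteins are among the nuclear targets of the cascade.

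Each peak list gave a signal for every peak, the authors' own measure of its height, which runs on a different scale in each list. The optimal list, derived from the replicates and their pool, held 4505 peaks with signals from 109 to 4103 (median 192), and these were the 4505 highest of the 27085 peaks in the pooled list. The replicate lists held 30000, 28006 and 30000 peaks for replicates 1, 2 and 3, with lowest signals of 11.5, 11.8 and 11.6. The pooled list is labelled as peaks and background for the step that gave the optimal list. The word peak is used here for every entry, and a low one outside the optimal list need not be binding. To compare replicates, the 4505 highest peaks of each were taken as its top list, and a height is given as a multiple of that list's median signal (40.5, 62.7 and 91.6). No read counts were analysed here, so the depth behind a signal is unknown. Replicate 1 stood apart: it held 70.5% of the optimal peaks within 100 bp, against 95.5% and 97.4% for the others, and 62 of the 500 highest optimal peaks had no summit within 500 bp in it.

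A promoter peak is a summit within 500 bp of a transcription start site (TSS). In the optimal list, Shc, drk and csw had one, 3 of the 10 genes, where 15.2% of all coding genes did. In the pooled list 6 of the 10 did, beside 36.6% of coding genes. In the whole lists of replicates 1, 2 and 3 the numbers were 2, 6 and 8 of the 10 genes, beside 22.4%, 39.6% and 52.1% of all coding genes. In the top lists they were 1, 1 and 4, with a mean of 2 ± 1.73 (SD, n = 3), beside 8.68%, 17.4% and 18.6%. Of the 4 genes that replicate 3 held, Ras85D, csw and drk were in its top list alone, and Shc was the gene with a top-list promoter peak in all 3 replicates. When an optimal promoter peak also had to be in the top list of every replicate, Shc alone remained, and this was so too with any 1 replicate left out. With 10 genes, each gene counts for 10 percentage points, and the shares lay on both sides of the background across lists. The background was not matched for the number of TSSs per gene, and a gene with several has more chances of a promoter peak.

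**Figure D1:**
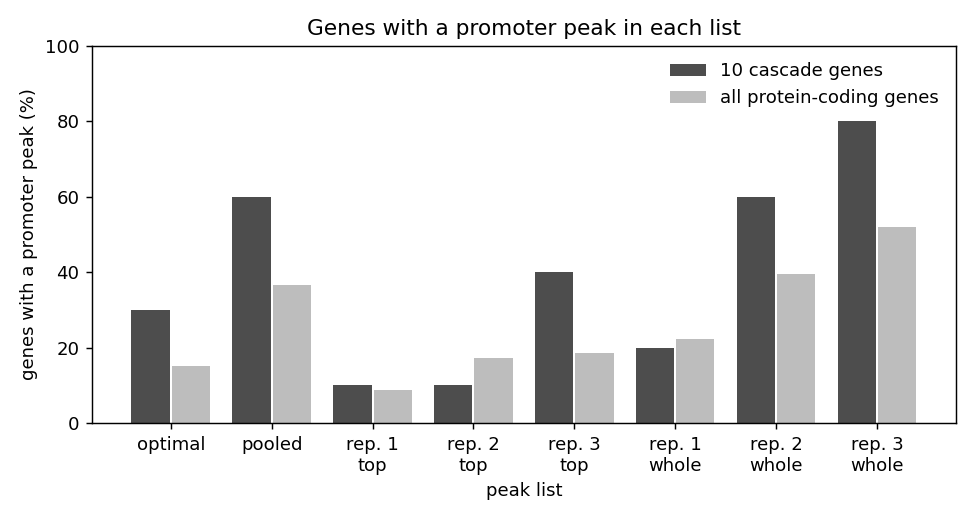
Share of genes (%) with a summit within 500 bp of a TSS in each peak list, for the 10 cascade genes (dark bars) and all 13945 coding genes (light bars). The dark bar is at 3 of 10 genes in the optimal list and lies below the light bar in the replicate 2 top list, where 1 of 10 genes stood beside 17.4%.

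Over the gene body plus 2 kb upstream, 5 of the 10 genes (Shc, drk, csw, RasGAP1 and Raf) held an optimal peak, beside 23.6% of coding genes. In the pooled list 7 did, beside 55.5%. These shares of coding genes were not matched for gene length, and long genes offer more room for peaks. Together the genes held 19 optimal peaks, of which 13 were over Raf. Replicate 1 held 13 of the 19, and replicates 2 and 3 held all 19, beside 70.5%, 95.5% and 97.4% of all optimal peaks. The 6 that replicate 1 lacked were both peaks of drk, the peak of csw, both of RasGAP1 and the farthest upstream peak of Raf, and its nearest summit lay between 1062 and 21404 bp away. The top lists of replicates 1, 2 and 3 had 13, 15 and 24 peaks over the 10 genes, a mean of 17.3 ± 5.86 (SD, n = 3). The top lists of replicates 1, 2 and 3 held 12, 14 and 19 of the 19 optimal peaks, beside 65.5%, 80.2% and 77.9% of all optimal peaks. Of the 19 optimal peaks, 10 were in the top list of each replicate. The share of all optimal peaks that meet this joint condition is not given here. The optimal list was derived from these replicates, so some agreement is built in. With that requirement held to the remaining replicates, the number was 14 without replicate 1, 12 without replicate 2 and 10 without replicate 3.

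**Figure D2:**
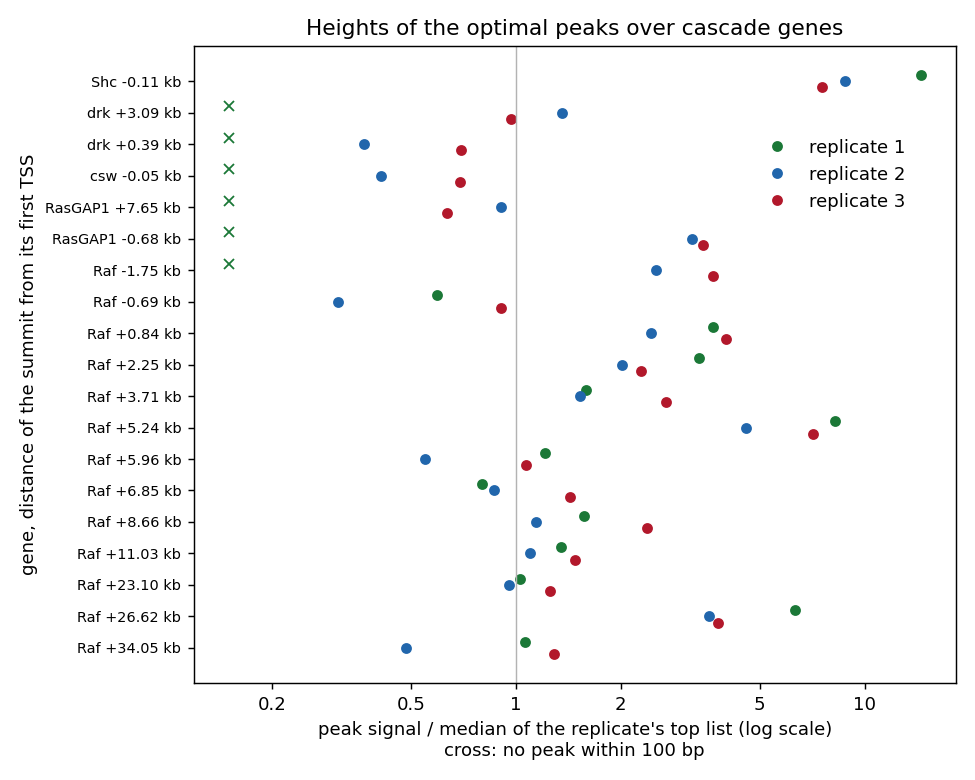
Height of each of the 19 optimal peaks over cascade genes in each replicate, as the signal over the replicate's top-list median (log scale); rows give the gene and the distance of the summit from its first TSS, points are replicates and crosses at the left edge mark no peak within 100 bp. Shc and the Raf peak at +5.24 kb lie at or above 4.57 in every replicate, and 6 rows lack replicate 1.

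Shc encodes an adaptor that binds phosphorylated receptors. It lies at chr3L:9427010-9428671 (dm6, plus strand; FBgn0015296) and had the highest peak of the set, at chr3L:9426693-9427080, with a signal of 1827 (rank 31 of 4505). The summit was 109 bp upstream of the Shc TSS and 143 bp from that of Atat, the gene that starts in the opposite direction, so the peak cannot be assigned to either gene. In replicates 1, 2 and 3 its signals were 587, 551 and 693, at ranks 21, 29 and 49. As multiples of the top-list medians these were 14.5, 8.79 and 7.57, a mean of 10.3 ± 3.70 (SD, n = 3). The peak thus stood within the highest 49 of every replicate. The 201 bp around its summit, chr3L:9426801-9427001, are shown because this is the highest peak of the set and the one whose window held TATCGATA, the DRE, the word bound by the factor Dref. The sequence is the plus strand of the RefSeq Release 6 genome, 5′ to 3′, and capitals mark TATCGATA, GGAA (the ETS core, read as TTCC on the other strand) and GATAA (the GATA-factor word).
Shc promoter: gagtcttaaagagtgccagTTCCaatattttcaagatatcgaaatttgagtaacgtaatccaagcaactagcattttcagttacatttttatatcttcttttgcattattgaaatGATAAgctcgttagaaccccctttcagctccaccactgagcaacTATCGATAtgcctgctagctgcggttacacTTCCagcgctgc

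drk encodes the SH2 and SH3 domain adaptor, the fly Grb2, that links receptors to Sos. The gene (FBgn0004638) lies at chr2R:13495222-13502841 on the minus strand and has 2 TSSs. Its promoter peak, chr2R:13502256-13502655, had an optimal signal of 126 (rank 3856), 163 bp upstream of the inner TSS, in an intron of the longer form and over the neighbouring gene mars, whose TSS lay 380 bp away. Replicate 2 gave it 23.0 and replicate 3 gave it 63.9, which are 0.367 and 0.698 of their top-list medians. A higher peak lay inside the gene, 2543 bp downstream of the nearest TSS at chr2R:13499670-13499802, with an optimal signal of 239 (rank 1661). It had signals of 85.5 in replicate 2 and 89.0 in replicate 3, and replicate 1 had no peak at either position.

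Sos, the exchange factor for Ras, had no peak in any of the 5 lists, over its body (chr2L:13813816-13819824, plus strand; FBgn0001965), 2 kb upstream or at its TSS. csw encodes an SH2 domain tyrosine phosphatase that acts downstream of receptors. Its gene (chrX:2094234-2115701, plus strand; FBgn0000382) had 1 optimal peak, chrX:2093980-2094379, with a signal of 115 (rank 4264) and a summit 54 bp upstream of the first of 3 TSSs. This signal lay just above the lowest of the optimal list, 109. Replicates 2 and 3 gave it 25.8 and 63.4, or 0.411 and 0.692 of their top-list medians, and replicate 1 held no peak over csw. The pooled list held 6 peaks over csw, between 29.9 and 115, and replicates 2 and 3 held 7 and 13.

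Ras85D encodes the Ras GTPase itself. Over the gene (chr3R:9510561-9513067, minus strand; FBgn0003205) the optimal, pooled, replicate 1 and replicate 2 lists held no peak. Replicate 3 held 1, with a signal of 103 (rank 1866, 1.12 times the top-list median), 94 bp upstream of the Ras85D TSS and 166 bp from that of Rlb1. Ras85D therefore had a promoter peak in 1 of 3 replicates.

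RasGAP1, whose product returns Ras to its inactive state, had the next highest peak outside Raf after that of Shc. It lay upstream of the gene (chr3L:9839093-9855285, minus strand; FBgn0004390) at chr3L:9855828-9856165, with an optimal signal of 664 (rank 275), and its summit was 681 bp from the TSS, just outside the 500 bp window. Replicate 1 had no peak there, and its nearest summit lay 21404 bp away. Replicate 2 gave 200 (rank 289) and replicate 3 gave 315 (rank 246), which are 3.19 and 3.44 times their top-list medians. The height was similar in these replicates and the peak missing from the first. A second optimal peak, chr3L:9847434-9847833 in an intron 7651 bp downstream of the TSS, had a signal of 136 (rank 3527), with 57.0 in replicate 2 and 58.3 in replicate 3. Within 500 bp of the TSS the pooled list held a peak of 88.7, 163 bp from the TSS, the highest pooled peak over the 10 genes that was not in the optimal list. The upstream window, chr3L:9855866-9856066 on the plus strand of the same genome, is printed because it is the highest peak of the set that replicate 1 lacked; capitals mark GGAA or TTCC, and the window held neither TATCGATA nor GATAA.
RasGAP1 upstream: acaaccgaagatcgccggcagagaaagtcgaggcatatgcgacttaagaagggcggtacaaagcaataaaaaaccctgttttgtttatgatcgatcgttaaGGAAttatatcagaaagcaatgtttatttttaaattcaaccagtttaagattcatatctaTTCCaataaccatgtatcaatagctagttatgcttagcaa

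Raf encodes the kinase between Ras and the MAPK kinase, and 13 of the 19 optimal peaks lay over it or within 2 kb upstream. The gene (chrX:2295466-2343870, plus strand; FBgn0003079) is 48405 bp long. It has a distal TSS at 2295466 and a proximal TSS at 2340298, 44.8 kb apart, and intron 2 of the distal transcript (chrX:2296354-2339990) spans 43637 bp. Coding sequence begins at 2340886, so the first 2 exons of the distal transcript are noncoding. Of the 13 peaks, 2 lay upstream of the distal TSS, 1 in the noncoding exon 2, and 10 in intron 2. One of these 10 was within 500 bp of the TSS of a gene nested in the intron, which left 9 intronic peaks away from any TSS. No optimal summit lay within 500 bp of either Raf TSS, though summits lay 693 bp upstream and 838 bp downstream of the distal TSS. The nearest listed peaks were a pooled peak of 58.7 at 491 bp upstream of the distal TSS and a replicate 3 peak of 39.5 at 94 bp upstream of the proximal TSS.

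The 3 windows printed here are centred on the highest intronic summits of Raf, since the finding rests on peaks away from the gene's own TSSs. They cover chrX:2300607-2300807 (peak 1, 5.24 kb downstream of the distal TSS), chrX:2321982-2322182 (peak 2, 26.62 kb, over the nested lncRNA:CR34052) and chrX:2297616-2297816 (peak 3, 2.25 kb). Each is the plus strand of the RefSeq Release 6 genome, 5′ to 3′, with GGAA or TTCC in capitals. Peak 1 held a pair of GGAA words close to its summit, and the others held TTCC.
Raf intronic peak 1: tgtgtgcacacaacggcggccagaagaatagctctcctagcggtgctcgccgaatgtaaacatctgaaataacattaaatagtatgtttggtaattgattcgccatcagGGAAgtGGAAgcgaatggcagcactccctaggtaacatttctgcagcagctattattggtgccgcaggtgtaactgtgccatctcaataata
Raf intronic peak 2: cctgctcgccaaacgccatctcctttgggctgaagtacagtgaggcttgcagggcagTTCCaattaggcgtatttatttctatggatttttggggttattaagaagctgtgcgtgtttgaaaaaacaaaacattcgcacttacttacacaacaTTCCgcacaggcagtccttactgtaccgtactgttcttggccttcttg
Raf intronic peak 3: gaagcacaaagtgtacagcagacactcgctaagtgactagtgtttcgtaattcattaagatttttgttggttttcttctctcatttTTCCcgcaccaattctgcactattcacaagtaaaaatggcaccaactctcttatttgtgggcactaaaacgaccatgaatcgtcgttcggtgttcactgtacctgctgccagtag

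Intronic peak 1 (chrX:2300543-2300879) had an optimal signal of 1285 (rank 72), and signals of 334, 286 and 649 in replicates 1, 2 and 3. These were 8.24, 4.57 and 7.09 times the top-list medians, a mean of 6.63 ± 1.88 (SD, n = 3). It lay 39.6 kb from the proximal TSS and over no other gene. Peak 2 (chrX:2321938-2322233) had an optimal signal of 834 (rank 175) and replicate signals of 255, 224 and 349, a mean multiple of 4.57 ± 1.51. Its summit was 182 bp from the TSS of lncRNA:CR34052, a noncoding gene on the opposite strand, so it cannot be assigned to Raf rather than to that gene. Peak 3 (chrX:2297599-2297833) had an optimal signal of 478 (rank 555) and replicate signals of 136, 126 and 209, a mean multiple of 2.55 ± 0.709. All 3 peaks were in the top list of every replicate.

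A pair of further high peaks flanked the distal TSS. The exon 2 peak, 0.84 kb downstream, had an optimal signal of 663 (rank 277) and signals of 149, 153 and 366 in replicates 1, 2 and 3, a mean multiple of 3.37 ± 0.827. The upstream peak, at chrX:2293570-2293895 and 1.75 kb from the distal TSS, had 617 (rank 333) in the optimal list, no summit within 100 bp in replicate 1, 159 in replicate 2 and 336 in replicate 3. That summit lay 301 bp from the TSS of CG2865, so the peak cannot be assigned to Raf rather than to that gene. A lower upstream peak, 0.69 kb from the distal TSS, had 133 (rank 3626) in the optimal list and 24.0, 19.4 and 83.1 in the replicates, and it was in the top list of replicate 3 alone.

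The remaining 7 intronic peaks were lower, with optimal signals from 188 to 410. The peak at 3.71 kb had signals of 64.4, 95.7 and 247 in replicates 1, 2 and 3, and the one at 8.66 kb had 63.6, 71.6 and 218. At 11.03 kb the signals were 54.8, 68.7 and 136, and at 23.10 kb 41.7, 59.8 and 114. These 4 were in every replicate's top list, as was the peak at 6.85 kb with 32.3, 54.2 and 131. The peaks at 5.96 kb (48.8, 34.4 and 98.0) and 34.05 kb (43.1, 30.4 and 118) fell outside the top list of replicate 2. Across the 13 peaks, 12 had a summit in the whole list of every replicate, and 9 were in all 3 top lists. The shares of all optimal peaks that meet these conditions are not given here. The order of heights was similar between replicates over the 12 shared peaks, with Spearman's rho of 0.94, 0.91 and 0.94 for replicates 1 and 2, 1 and 3, and 2 and 3. This is a description over peaks of 1 gene that share their libraries.

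**Figure D3:**
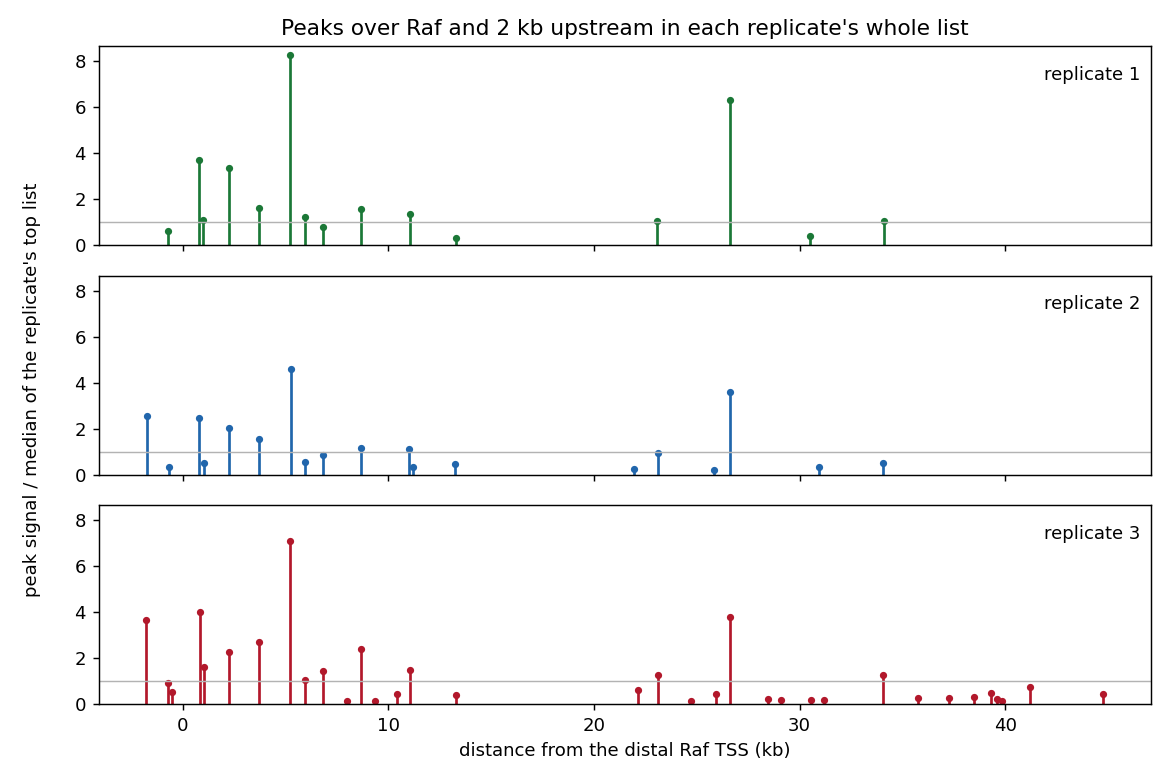
Peaks over Raf and 2 kb upstream in the whole list of each replicate, by distance of the summit from the distal TSS (kb); the vertical axis is the signal over the replicate's top-list median, which the grey line marks. The peak at 5.24 kb is the highest in each replicate, at 8.24, 4.57 and 7.09.

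The peaks were unevenly spread over the intron. Of the 13 peaks, 8 lay within 12 kb downstream of the distal TSS, and gaps between neighbouring summits ran from 716 to 12064 bp, with a median of 1530 bp. The last optimal summit was 10.8 kb from the proximal TSS. The 10 intronic peaks had a median optimal signal of 328, and 8 of them were above the median of the whole optimal list, 192. The pooled list held 13 intronic peaks away from any TSS, and the whole lists of replicates 1, 2 and 3 held 11, 14 and 23.

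**Figure D4:**
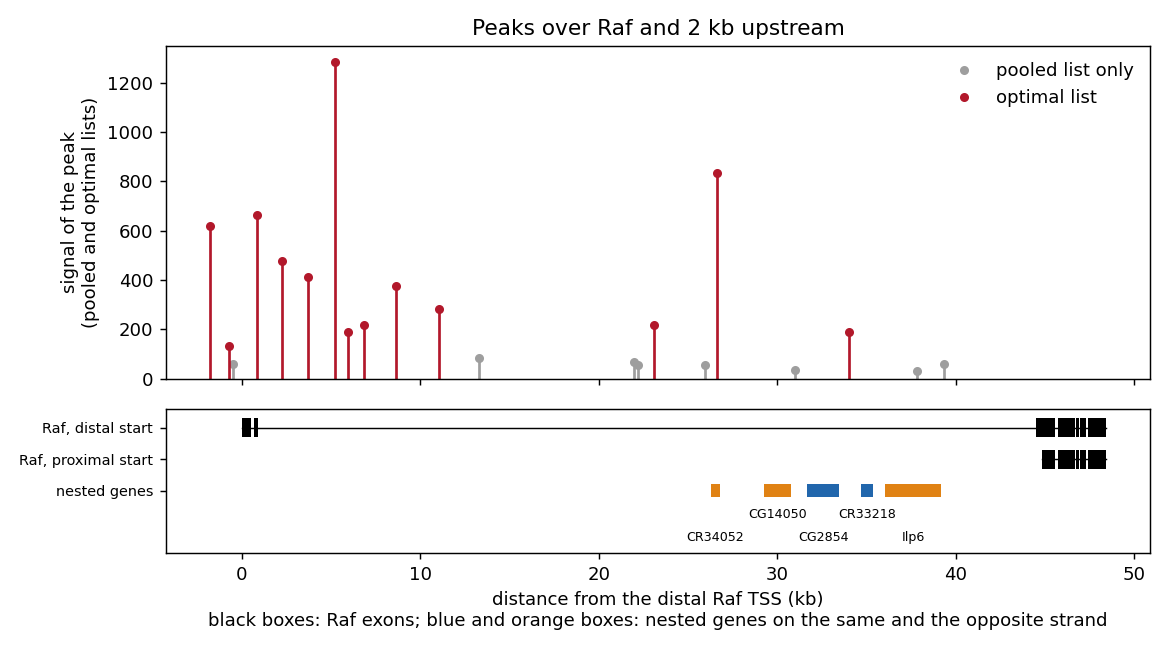
Peaks over Raf and 2 kb upstream by distance from the distal TSS (kb), with the signal of optimal peaks (red) and peaks of the pooled list alone (grey) above the 2 Raf transcripts and the 5 nested genes, drawn to scale. The highest peak is 1285 at 5.24 kb, and 8 of the 13 optimal peaks lie within 12 kb downstream of the distal TSS.

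Of the 5 genes nested in intron 2, lncRNA:CR34052 alone had an optimal promoter peak. Ilp6, an insulin-like peptide gene, had 2 pooled promoter peaks, the higher of 58.3 at 140 bp from its TSS, and 3 in replicate 3, the highest of 45.8 at 134 bp, with none in replicates 1 and 2. CG14050 had a pooled peak of 33.2 at 231 bp, and its highest promoter signals were 16.0, 21.9 and 17.7 in replicates 1, 2 and 3. CG2854 had that same replicate 3 peak of 17.7, at 494 bp from its own TSS, and no peak in the other lists, and lncRNA:CR33218 had none in any list.

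Long genes offer more room for peaks, so Raf was set beside the 230 other coding genes within 20% of its length (38894 to 58027 bp). Of these, 107 (46.5%) had no optimal peak over the gene plus 2 kb upstream, the median was 1 and the third quartile 3. The highest count among them was 10, in RhoGAP19D and in brat, a translational repressor, with 8 intronic peaks each. None of the 230 reached the 13 of Raf, and none had as many as 9 intronic peaks. Over all coding genes, 6 others (0.043%) had at least 13, namely kirre (24), CG1677 (19), sbb (17), CG43658 (16), Mnt (15) and shn (14). Genes shorter than the length window also passed the 9 intronic peaks of Raf. Mnt (29872 bp) had 14 intronic peaks, and tara (34679 bp) had 12 peaks, 11 of them intronic. No gene of this length had the same number of intronic peaks as Raf, so none is named as like it, and the genes listed here were named after their counts were seen. Since Raf entered the set for its count, this places it among genes of its length and is no test.

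**Figure D5:**
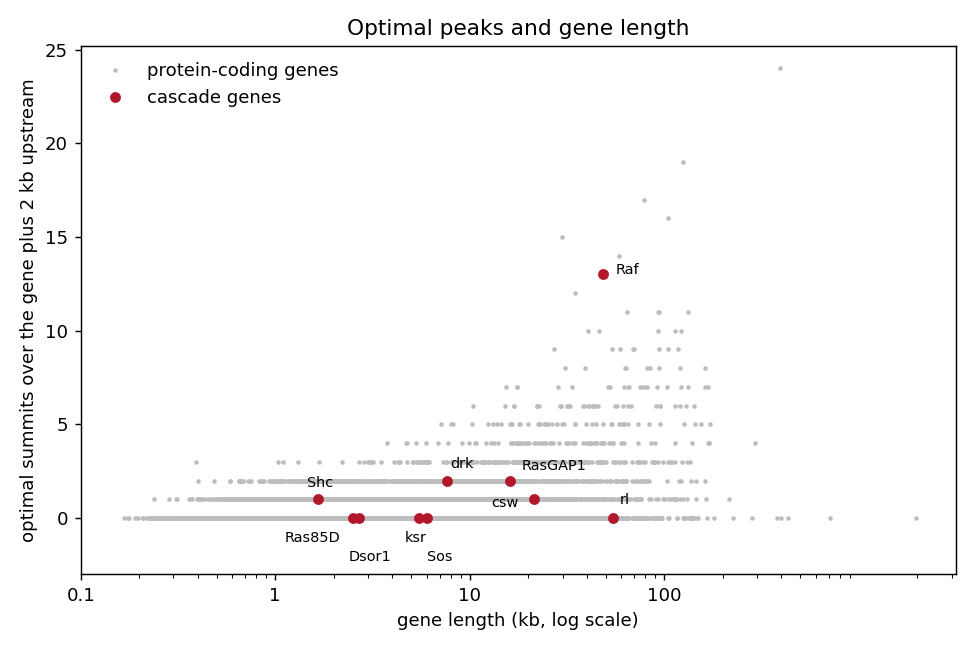
Number of optimal summits over each coding gene plus 2 kb upstream against gene length (kb, log scale), with all coding genes in grey and the 10 cascade genes in red. Raf is at 13 and 48405 bp, and rl, of similar length, is at 0, in a region that also lacks optimal peaks.

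The kinases below Raf and its scaffold, rl, Dsor1 and ksr, had no optimal peak. ksr, the scaffold that holds Raf and its substrate together (chr3R:5478390-5483906, minus strand; FBgn0015402), had none in the optimal, pooled or replicate 1 lists. Replicate 2 gave it a promoter peak of 12.7, near the lowest signal of that list (11.8), 34 bp upstream of the TSS. Peaks of 49.7 in replicate 2 and 61.1 in replicate 3 lay farther upstream, 87 and 35 bp from the TSS of CG31550, and replicate 2 gave 14.4 in a coding exon. Dsor1, the MAPK kinase (chrX:9247342-9250037, plus strand; FBgn0010269), had no optimal peak. A pooled peak of 79.1 lay in its intron 616 bp downstream of the nearest TSS, with 28.5 in replicate 2 and 35.9 in replicate 3. Replicate 3 alone gave Dsor1 a promoter peak, of 45.3, 78 bp upstream of its TSS and 72 bp from that of amx.

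rl, the MAPK (chr2R:1071462-1125927, plus strand; FBgn0003256), is 54466 bp long, so it is near Raf in length, and it had no optimal peak. The nearest optimal summit lay at least 402785 bp from every peak listed over rl. The lack of optimal peaks was thus shared by the region around the gene and is not particular to rl. The pooled list held 8 peaks over rl, between 29.0 and 54.2, of which 2 were promoter peaks: 54.2 at 460 bp and 34.1 at 123 bp from a TSS, the latter 20 bp from the TSS of lncRNA:CR41257. Replicates 1, 2 and 3 held 16, 6 and 5 peaks over rl, and none of these was in a top list. Their signals ran from 12.3 to 23, 12.8 to 21.6 and 14.4 to 18.5, where the lists began at 11.5, 11.8 and 11.6. The highest promoter signals were 14.6, 17.5 and 17.2 in the 3 replicates, or 0.361, 0.279 and 0.188 of their top-list medians.

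Some sequence features were counted in the 201 bp around each summit on both strands, beside all 4482 optimal windows on the main arms and 22003 pooled windows at least 500 bp from an optimal summit. The 8-letter ETS words CCGGAAGC and CCGGAAGT were in none of the 19 windows, and in 0.29% of all optimal and 0.327% of pooled windows. The core GGAA, which both words contain, was in 16 of the 19 windows and in 11 of the 13 at Raf, beside 74.1% and 77.8%. TATCGATA was in 1 window (Shc), beside 2.48% and 1.32%, and GGTCACACT, the M1BP word, was in none, beside 0.803% and 0.614%. TGANTCA, the AP-1 word, was in the intronic RasGAP1 window alone, beside 5.2% and 4.49%. GATAA was in 5 of 19, beside 41% and 38.2%, and GAGAGAG in 2, both at Raf, beside 2.48% and 2.57%. These counts describe letters in a window and no binding.

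The base composition of the summits was also read. Over 101 bp centred on the summit, the median GC content of the 19 peaks was 35.6% (quartiles 31.2% and 41.6%), and that of the 13 Raf peaks 37.6% (34.7% and 41.6%), beside 31.7% over all optimal peaks. Summits had less GC than windows 500 bp to either side in 13 of the 19 peaks and 8 of the 13 Raf peaks, beside 85.8% of all optimal peaks.

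The wider cascade was looked at in 33 other genes, listed by their textbook roles. Of these, 9 had an optimal promoter peak, beside 15.2% of all coding genes, and 22 had a pooled promoter peak, beside 36.6%. Over the gene plus 2 kb, 17 had an optimal peak, beside 23.6%. These shares of coding genes were not matched for gene length, and long genes offer more room for peaks. They were not matched for the number of TSSs either, and a gene with several has more chances of a promoter peak. In the top lists of replicates 1, 2 and 3, promoter peaks were at 4, 11 and 10 of the 33 genes, beside 8.68%, 17.4% and 18.6% of coding genes. The median of the highest promoter signal over the 9 was 149. The highest was cic, a repressor of Ras target genes that the MAPK inactivates, with 374 (rank 845) at 324 bp from a TSS and replicate signals of 114, 120 and 129, or 2.81, 1.92 and 1.41 times the top-list medians. ave, an adaptor that links cnk and ksr, had 214 at 148 bp, 102 bp from the TSS of Rpn6, with 81.3 and 81.4 in replicates 2 and 3 and no peak in replicate 1. InR, the insulin receptor, had 207 at 110 bp, with 39.6, 54.8 and 115 in replicates 1, 2 and 3. 14-3-3zeta, which binds phosphorylated Raf, had 191 at 45 bp, 42 bp from the TSS of RpLP0-like, with 43.3 and 125 in replicates 2 and 3 and no peak in replicate 1. None of these 33 genes had a promoter signal as high as the 1827 of Shc.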

How the data were processed

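Peak lists deposited by the authors for ChIP-seq of 3 biological replicates of GFP-tagged Ets21C were read. The sample notes deposited state that every replicate list was called from its own alignment and a control alignment, the pooled list from the pooled alignments and a control alignment, and the optimal list was derived from these by irreproducible discovery rate; the build was dm6. The unit of the values used is the authors' signal (peak height) per peak, with caller and settings not given in the sources used here. Copies in dm3 were not used and no coordinate was converted. Summits were taken at 1-based positions and compared with Ensembl release 115 gene models. A promoter peak lay within 500 bp of a TSS, and genes were taken with 2 kb upstream. Peaks were called shared between lists when summits lay within 100 bp. Counting was done in Python 3.11.15 with pandas 2.3.3, numpy 2.4.6 and scipy 1.17.1, and the figures in matplotlib 3.10.9; counting code was tested on simulated data. Sequence is from the RefSeq Release 6 genome. Named were all 10 genes, the 4 of 33 further cascade genes with the highest optimal promoter signal and genes whose TSS lay near a peak. The rule for genes like Raf in length and intronic count found none, and the genes with the most peaks were named after their counts were seen. The genes and lists were chosen with earlier results of these data known. No test was run, since there is 1 group and the labels' control was not analysed here. Alternatives were other windows, the peak interval, coding transcripts, the upper part of the optimal list and, among peaks required in the remaining top lists, leaving out each replicate.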

Additional observations from a re-analysis of the deposited data

How the results depend on the processing

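No paired analysis was possible because there is 1 group of samples. The count of 3 genes with an optimal promoter peak became 5 with a window of 1000 bp, which added RasGAP1 and Raf. It was 4 with the peak interval in place of the summit, which added Raf. In the higher-signal part of the optimal list (signal above 192) it was 1. The alternatives that leave out 1 replicate also require each optimal peak in the top lists of the remaining replicates. That requirement with all replicates kept, an alternative chosen after seeing the data, gave 1 gene and 10 of the 19 peaks over the genes. With 1 replicate left out, the number of genes was 1 each time and the number of peaks between 10 and 14. Leaving out a replicate dropped 1 condition and kept the same optimal list, so these numbers could not be lower than with all replicates kept. They do not show how the optimal list itself depends on any replicate. The 9 intronic peaks of Raf came to between 7 and 13 across 7 alternatives, and the 10 peaks in all top lists between 10 and 14 across 7. Depth is unknown, and the lists of replicates 1 and 3 each held exactly 30000 peaks, so they may have been cut at that number. A missing peak was therefore not listed, rather than shown to be absent.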

Other observations

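Some top-list peaks of single replicates were missing from the pooled list within 100 bp: 326 in replicate 1 (7.24%), 420 in replicate 2 (9.32%) and 552 in replicate 3 (12.3%). The promoter peak of Ras85D, 103 in replicate 3, was one of them, with no pooled peak over the gene. Peaks over the 10 cascade genes with summits more than 100 bp from any optimal summit were also counted. The pooled list held 30 of them (29 to 88.7), and replicates 1, 2 and 3 held 19 (12.3 to 43.4), 26 (12.5 to 49.7) and 53 (11.6 to 149). The highest in replicates 1 and 3, 43.4 and 149, overlapped the optimal exon 2 peak of Raf.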
